A study of Mus musculus with 34 samples.

Results

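The reactive astrocyte genes described here are 10 transcripts: Gfap, Vim and Nes, which encode intermediate filament proteins, Serpina3n and Ptx3, which encode secreted proteins, and Cd44, S1pr3, Cd109, Tm4sf1 and Emp1, which encode proteins of the cell surface. They were taken as a fixed list, and every probe set that the platform annotation gives to exactly 1 of these symbols was used. This gave 26 probe sets of the 45101 on the array, of which 22 passed the filter on low values (4 or more arrays with a log2 value of 4 or higher) among 24573 that passed in all. Every gene kept at least 1 tested probe set, so the 10 genes are read against 11998 tested genes. The list is not confined to astrocytes, because several members are also made by other cells of injured tissue.

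Mouse thoracic spinal cord was profiled on 34 Affymetrix arrays. The animals were C57BL/6J mice backcrossed for more than 20 generations, 8 to 12 weeks old, and either trkB.T1 wild type (WT) or trkB.T1 knockout (KO). Ntrk2 encodes TrkB, through which the growth factor BDNF acts, and trkB.T1 is a short form of it that lacks the kinase domain. Cords were labelled sham or were collected 1, 3 or 7 days after a moderate contusion. The titles of the control arrays say sham but their description codes begin with Nav, so it is unknown here whether the control animals were operated on, and each rise below is from these labelled controls. The WT groups held 4 sham, 5 day 1, 4 day 3 and 4 day 7 arrays, and the KO groups held 4 sham, 4 day 1, 5 day 3 and 4 day 7 arrays. The knockout was not limited to 1 cell type by any label, and the labels do not say whether cords were pooled. The design asks how the cord responds to the injury over time and whether loss of trkB.T1 alters that response.

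Astrocytes answer damage to the central nervous system by enlarging, by building more intermediate filaments and, near a lesion, by dividing and forming a border around it. The filament protein GFAP is the usual marker of this state, vimentin and nestin are filament proteins of immature astrocytes that return in reactive ones, and the secreted and surface proteins on the list are known from transcript profiles of reactive astrocytes. Cytokines of the interleukin-6 family act on these cells through STAT3, and inflammatory signals act through NF-kB and AP-1. In whole cord, more RNA per cell and more cells of a type cannot be told apart.

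Promoter sequences are shown because these 3 transcription factor families are the textbook routes to these genes. RefSeq (GRCm38.p6) promoters, running from 250 bases before to 50 bases after the transcript start, were found for 9 of the 10 members, with 2 promoters for Emp1. Both strands were searched for the STAT motif TTCNNNGAA, the AP-1 motif TGANTCA and the NF-kB motif of 3 G, any 5 bases and 2 C. Gfap lies at chr11:102887336-102897200, Serpina3n at chr12:104406646-104414334, Ptx3 at chr3:66219887-66225806 and Emp1 at chr6:135362550-135383173, all protein coding. The lines below give 170 bases, from position -150 to position 20 about the start, for Gfap (chr11:102897181-102897350, minus strand), Serpina3n (chr12:104406558-104406727, plus strand), Ptx3 (chr3:66219737-66219906, plus strand) and the first Emp1 promoter (chr6:135362781-135362950, plus strand). They are written 5′ to 3′ with the motif matches in capitals.
Gfap: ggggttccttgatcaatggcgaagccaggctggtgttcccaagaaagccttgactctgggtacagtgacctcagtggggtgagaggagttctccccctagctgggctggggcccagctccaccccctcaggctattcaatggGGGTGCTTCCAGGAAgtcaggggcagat
Serpina3n: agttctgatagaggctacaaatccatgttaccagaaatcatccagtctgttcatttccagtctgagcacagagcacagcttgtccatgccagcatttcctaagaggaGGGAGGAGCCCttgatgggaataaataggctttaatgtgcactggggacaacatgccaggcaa
Ptx3: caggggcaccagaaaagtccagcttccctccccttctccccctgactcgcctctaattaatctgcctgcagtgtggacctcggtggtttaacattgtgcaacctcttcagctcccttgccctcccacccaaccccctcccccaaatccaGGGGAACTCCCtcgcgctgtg
Emp1: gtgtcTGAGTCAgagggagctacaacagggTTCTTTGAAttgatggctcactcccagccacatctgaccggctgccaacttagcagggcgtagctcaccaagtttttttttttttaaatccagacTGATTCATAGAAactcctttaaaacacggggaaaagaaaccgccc
The capitals in Gfap hold a STAT match, TTCCAGGAA, that overlaps an NF-kB match, GGGTGCTTCC. The capitals in Emp1 hold, in order, the AP-1 match TGAGTCA, the STAT match TTCTTTGAA, and an AP-1 match, TGATTCA, that overlaps the STAT match TTCATAGAA. The capitals in Serpina3n and Ptx3 are NF-kB matches that overlap on the 2 strands. A STAT match was present in 2 of the 9 members with a promoter, against 8.30% of all 32851 promoters of this length. An AP-1 match was present in 1 of the 9 members, against 7.81% of promoters, and an NF-kB match in 8 of the 9, against 50.8%. These are letter matches, with no measurement of binding in the series.

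The labels of 3 arrays need stating before the results. By title, 2 arrays are day 1 WT replicates 1 and 2, but other label fields of theirs say day 7 and sham. Their correlation with the mean of day 1 WT was 0.81 and 0.71, and no group of another time gave more than 0.21 and 0.18. The titles were followed. On Ntrk2, the targeted gene, probe set 1420838_at read 10.01 to 10.85 on all WT arrays. It averaged 4.10 ± 0.45 (SD, n = 4) in day 1 KO, 3.90 ± 0.72 (SD, n = 5) in day 3 KO and 4.18 ± 0.27 (SD, n = 4) in day 7 KO. The library labelled sham KO replicate 2 read 9.46 against a sham KO low of 3.31, so its label goes against its Ntrk2 signal. All 34 arrays were nearest to the mean of their own time point and 21 to that of their own group. Day 7 WT replicate 4 stood apart in the 3′ minus 5′ signal of control transcripts, a reading of RNA quality: it had 1.45 for beta-actin against 1.93 to 2.02 on the other 3 day 7 WT arrays, and 0.11 for Gapdh against 0.46 to 0.57. With both doubted day 1 arrays left out, or with sham KO replicate 2 and day 7 WT replicate 4 left out, all 10 genes were called higher in each of the 6 injured groups and 0 were called between genotypes.

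All 10 genes rose after contusion at every time point in both genotypes, by 1.11 to 6.20 on the log2 scale. A gene counts as called when limma's Benjamini-Hochberg adjusted p is below 0.05, and where a gene has several probe sets, the one with the highest mean over all arrays stands for it. Where the sham mean of a probe set is under 4, close to the floor of the scale, its rise is a lower bound. In WT, 10 of 10 were called higher on day 1, 10 of 10 on day 3 and 10 of 10 on day 7, where 26.6%, 29% and 25.4% of all tested genes were called higher. In KO the counts were again 10 of 10 on day 1, day 3 and day 7, beside 23.1%, 30.7% and 22.9% of all genes. In each of these 6 comparisons every injured array read above every sham array for all 10 genes. The share of all tested genes that separate in this way was not counted, so this separation only describes the members. The median member difference in WT was 4.02 on day 1, 4.13 on day 3 and 3.25 on day 7, and in KO it was 3.40, 3.74 and 2.90. The median over all tested genes lay between -0.06 and -0.05.

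**Figure D1:**
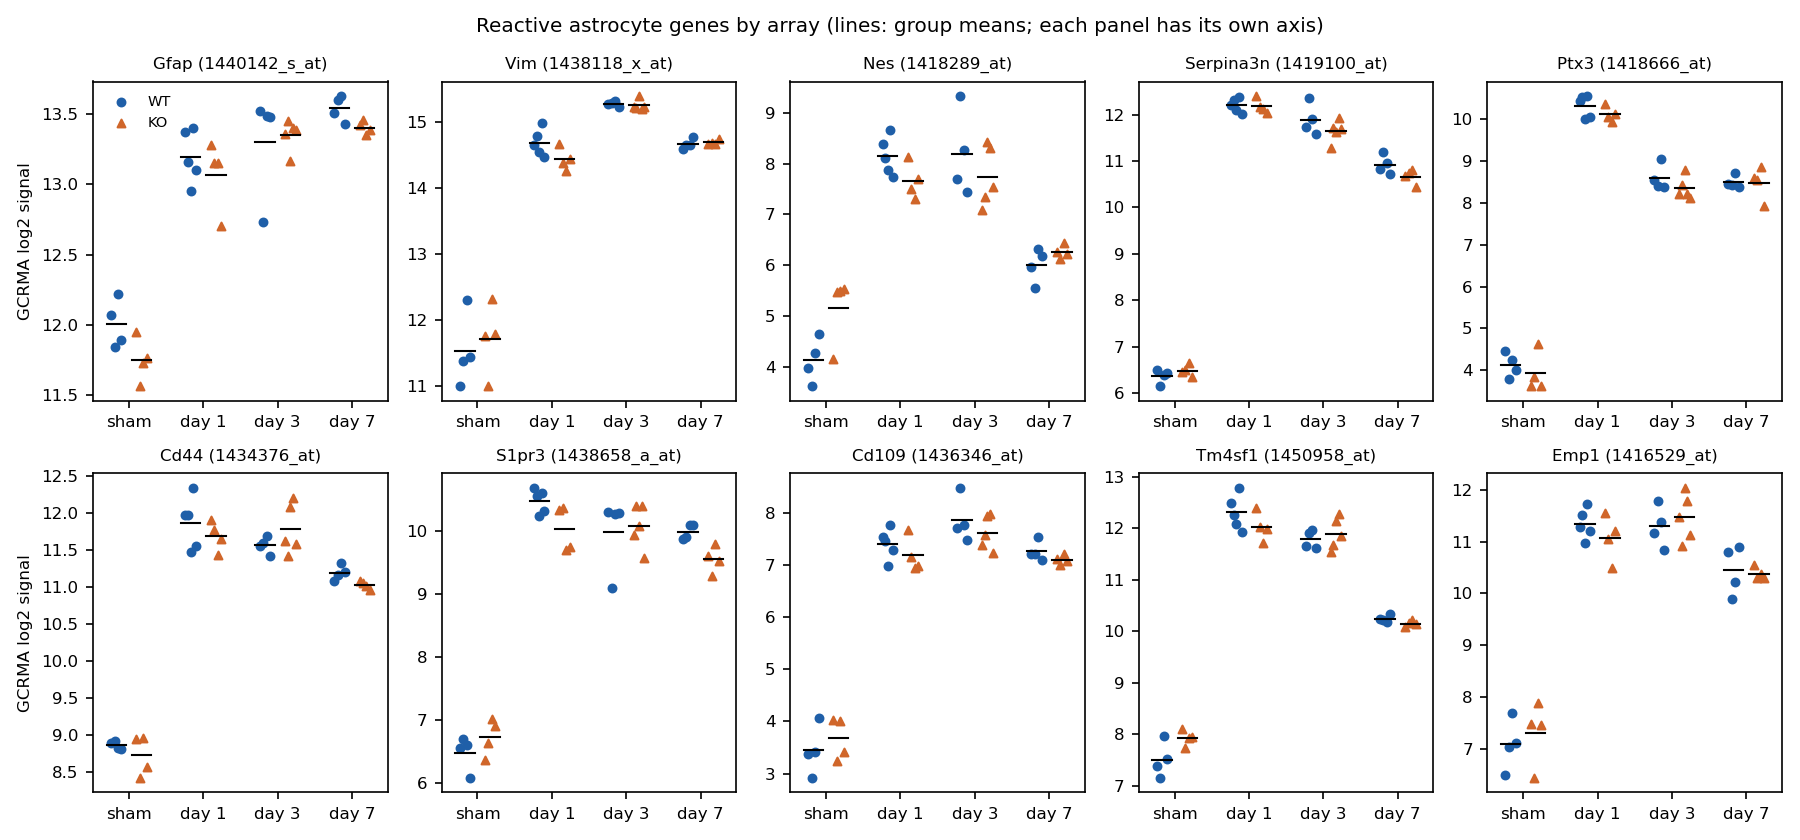
GCRMA log2 signal (vertical axis, its own range in each panel) of the 10 genes on the 34 arrays, 1 panel a gene with its probe set, by sham and day after contusion (horizontal axis). Circles are WT arrays, triangles are KO arrays and lines are group means. Every injured array lies above every sham array of its genotype in all 10 panels. The WT and KO points overlap in each condition, except on day 7 for Cd44 and S1pr3, where the KO points lie lower.

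Gfap, the defining filament gene of astrocytes, had the smallest rise of the 10 genes in WT on every day, and in KO on days 1 and 3. On 1440142_s_at the sham WT arrays read 12.07, 11.84, 12.22 and 11.89. The WT arrays read 13.37, 13.16, 12.95, 13.40 and 13.10 on day 1, 13.52, 12.73, 13.49 and 13.48 on day 3, and 13.51, 13.60, 13.63 and 13.43 on day 7. Day 3 WT replicate 2 read lowest of the injured WT arrays, but still above every sham array. The sham KO arrays read 11.95, 11.56, 11.73 and 11.76, and the KO arrays read 13.28, 13.15, 13.15 and 12.70 on day 1, 13.36, 13.45, 13.17, 13.40 and 13.39 on day 3, and 13.42, 13.46, 13.35 and 13.39 on day 7. The WT rise was 1.19 ± 0.13 (SE) on day 1, 1.30 ± 0.14 on day 3 and 1.54 ± 0.14 on day 7, or 2.28-fold, 2.47-fold and 2.91-fold. The KO rise was 2.49-fold, 3.04-fold and 3.15-fold. The other tested Gfap probe sets, 1426508_at and 1426509_s_at, rose by 0.86 and 0.73 on day 1 and by 1.68 and 1.60 on day 7 in WT, and by 2.00 and 1.86 on day 7 in KO. The array annotation gives these 2 probe sets the same source sequence, so they are not independent readings.

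Vim, which encodes vimentin, is made by reactive astrocytes and also by endothelial cells, fibroblasts, macrophages and ependymal cells. On 1438118_x_at the sham WT arrays read 11.01, 11.39, 12.31 and 11.44, and the sham KO arrays read 11.77, 10.996, 12.32 and 11.79. After injury the WT signal was 14.66, 14.80, 14.55, 14.99 and 14.47 on day 1, 15.28, 15.29, 15.32 and 15.24 on day 3, and 14.59, 14.66, 14.66 and 14.78 on day 7. Day 3 stood above both other days in every WT array. In KO the signal was 14.67, 14.39, 14.26 and 14.45 on day 1, 15.24, 15.22, 15.40, 15.21 and 15.24 on day 3, and 14.68, 14.69, 14.67 and 14.75 on day 7, with the same order of day 3 above the others. The day 3 values lie near the top of the scale, whose highest value on any array was 15.904. Vim rose 8.91-fold, 13.4-fold and 8.78-fold in WT on days 1, 3 and 7, and 6.61-fold, 11.6-fold and 7.87-fold in KO. Its other probe sets, 1450641_at and 1456292_a_at, gave WT rises of 4.24 and 4.15 on the log2 scale on day 3.

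Nes encodes nestin, the filament protein of neural stem and progenitor cells, also present in reactive astrocytes, regenerating muscle and growing vessels. On 1418289_at the sham WT arrays read 3.98, 3.61, 4.26 and 4.65, close to the floor of the scale, and the sham KO arrays read 4.14, 5.46, 5.48 and 5.53. The WT arrays read 8.39, 8.10, 7.88, 8.67 and 7.73 on day 1, 7.69, 9.33, 8.27 and 7.43 on day 3, and 5.97, 5.55, 6.31 and 6.18 on day 7. Days 1 and 3 overlapped, and every day 7 array lay below both. The KO arrays read 8.13, 7.49, 7.30 and 7.69 on day 1, 7.08, 7.35, 8.42, 8.31 and 7.54 on day 3, and 6.26, 6.12, 6.44 and 6.21 on day 7. Nes rose by 4.03 ± 0.33 (SE), 4.05 ± 0.35 and 1.88 ± 0.35 in WT on days 1, 3 and 7 and by 2.50 ± 0.35, 2.59 ± 0.33 and 1.11 ± 0.35 in KO. The KO rise on day 7 (limma adjusted p = 0.0101) was 0.77 with an adjusted p of 0.0698 once sham KO replicate 1 was left out. On 1449022_at, whose sham means lay near the floor, the rises were 4.18, 4.22 and 1.91 in WT and 3.54, 3.81 and 1.98 in KO. The third Nes probe set, 1453997_a_at, reached a log2 value of 4 on only 4 arrays, and its differences of 0.33 on day 7 in WT and of 0.20, 0.29 and -0.29 on days 1, 3 and 7 in KO were not called. Those 4 values are the exceptions among the 22 tested probe sets, all others of which were called higher in every injured group.

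Serpina3n encodes a secreted inhibitor of serine proteases and is among the genes most used to mark reactive astrocytes. On 1419100_at the sham WT arrays read 6.49, 6.14, 6.38 and 6.42, and the sham KO arrays read 6.44, 6.49, 6.65 and 6.34. Contused WT cords gave 12.20, 12.31, 12.09, 12.37 and 12.02 on day 1, 11.73, 12.36, 11.90 and 11.58 on day 3, and 10.82, 11.19, 10.96 and 10.72 on day 7. Every day 7 array lay below every day 1 and day 3 array, and all lay well above sham. Contused KO cords gave 12.40, 12.17, 12.12 and 12.04 on day 1, 11.29, 11.70, 11.62, 11.93 and 11.69 on day 3, and 10.68, 10.73, 10.80 and 10.43 on day 7, so that the 3 days did not overlap in KO. The WT rise was 5.84 ± 0.13 (SE), 5.54 ± 0.14 and 4.57 ± 0.14 on the log2 scale, or 57.2-fold, 46.4-fold and 23.7-fold. The KO rise was 52.1-fold, 35.9-fold and 18.1-fold.

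Ptx3 encodes pentraxin 3, a secreted pattern recognition protein of innate immunity. On 1418666_at the sham WT arrays read 4.46, 3.79, 4.25 and 4.00, and the sham KO arrays read 3.61, 3.84, 4.63 and 3.61. The WT arrays read 10.45, 10.53, 9.998, 10.56 and 10.05 on day 1, 8.56, 8.41, 9.06 and 8.39 on day 3, and 8.45, 8.43, 8.72 and 8.38 on day 7. Day 1 stood above both later days without overlap, while days 3 and 7 overlapped. The KO arrays showed the same separation of day 1, with 10.37, 10.06, 9.95 and 10.13 on day 1, 8.21, 8.42, 8.79, 8.22 and 8.13 on day 3, and 8.59, 8.56, 8.85 and 7.92 on day 7. The rise on day 1 was 6.19 ± 0.20 (SE) in WT, or 73.0-fold, and 6.20 ± 0.21 in KO, or 73.7-fold. On days 3 and 7 it was 22.3-fold and 20.6-fold in WT and 21.5-fold and 23.5-fold in KO. The sham KO mean lay below a log2 value of 4, where GCRMA values bottom out, so the KO folds are lower bounds. A second Ptx3 probe set, 1456903_at, read at most 2.94 on any array and was not tested.

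Cd44 encodes the receptor for hyaluronan, a matrix polymer, and is made by reactive astrocytes and by leukocytes. On 1434376_at the sham WT arrays read 8.89, 8.92, 8.83 and 8.81, and the sham KO arrays read 8.95, 8.42, 8.96 and 8.57. Values of injured WT arrays were 11.98, 11.98, 11.48, 12.35 and 11.56 on day 1, 11.56, 11.60, 11.70 and 11.42 on day 3, and 11.09, 11.16, 11.33 and 11.21 on day 7. The day 7 arrays lay below those of both earlier days. Values of injured KO arrays were 11.91, 11.77, 11.44 and 11.66 on day 1, 11.62, 11.42, 12.08, 12.21 and 11.59 on day 3, and 11.08, 11.06, 11.02 and 10.96 on day 7, again with day 7 lowest. Cd44 rose 8.03-fold, 6.52-fold and 5.03-fold in WT and 7.85-fold, 8.34-fold and 4.95-fold in KO. Its other tested probe sets, 1423760_at and 1452483_a_at, rose by 3.07 and 3.30 on day 1 in WT, while 1443265_at was below the filter.

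S1pr3 encodes a receptor for sphingosine 1-phosphate, a lipid signal. On 1438658_a_at the sham WT arrays read 6.55, 6.69, 6.60 and 6.08, and the sham KO arrays read 6.37, 6.63, 7.01 and 6.91. Injured WT arrays gave 10.69, 10.55, 10.23, 10.61 and 10.32 on day 1, 10.30, 9.10, 10.27 and 10.29 on day 3, and 9.87, 9.91, 10.09 and 10.09 on day 7. Day 3 WT replicate 2, at 9.10, stood apart from the other 3 arrays of its group, which read 10.27 to 10.30. Injured KO arrays gave 10.33, 10.36, 9.70 and 9.74 on day 1, 9.93, 10.39, 10.08, 10.39 and 9.57 on day 3, and 9.60, 9.28, 9.79 and 9.53 on day 7. S1pr3 rose by 4.00 ± 0.21 (SE), 3.51 ± 0.22 and 3.51 ± 0.22 in WT and by 3.30 ± 0.22, 3.34 ± 0.21 and 2.82 ± 0.22 in KO. The second tested probe set, 1437173_at, rose by 3.92, 3.31 and 3.05 in WT, and 1460661_at was below the filter.

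Cd109 encodes a membrane-anchored protein of the alpha-2-macroglobulin family. On 1436346_at the sham WT arrays read 3.37, 2.92, 3.42 and 4.07, and the sham KO arrays read 4.03, 3.25, 4.00 and 3.42, so that its fold changes are lower bounds in both genotypes. The WT arrays read 7.54, 7.46, 6.97, 7.77 and 7.28 on day 1, 7.70, 8.48, 7.76 and 7.47 on day 3, and 7.21, 7.21, 7.54 and 7.09 on day 7, and neighbouring days overlapped. The KO arrays read 7.67, 7.15, 6.94 and 6.98 on day 1, 7.38, 7.57, 7.94, 7.98 and 7.22 on day 3, and 7.12, 7.00, 7.21 and 7.07 on day 7, where day 7 lay just below day 3. The measured rise in WT was 15.6-fold, 21.2-fold and 14.1-fold, and in KO it was 11.4-fold, 15.4-fold and 10.7-fold. On 1425658_at the rise on day 3 was 4.89 in WT and 4.52 in KO on the log2 scale.

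Tm4sf1 and Emp1 encode proteins with 4 membrane-spanning segments; the first is also known from endothelial cells and the second from epithelia. On 1450958_at the Tm4sf1 sham values were 7.38, 7.15, 7.97 and 7.52 in WT and 8.10, 7.74, 7.92 and 7.94 in KO. After contusion WT values were 12.49, 12.26, 12.08, 12.79 and 11.93 on day 1, 11.66, 11.91, 11.97 and 11.62 on day 3, and 10.23, 10.22, 10.17 and 10.33 on day 7. The day 7 arrays were tightly grouped and lay far below the earlier days. After contusion KO values were 12.40, 12.02, 11.72 and 11.98 on day 1, 11.54, 11.67, 12.14, 12.27 and 11.85 on day 3, and 10.08, 10.15, 10.22 and 10.13 on day 7, with the same late drop. Tm4sf1 rose 27.9-fold, 19.5-fold and 6.65-fold in WT and 17.2-fold, 15.7-fold and 4.67-fold in KO. On 1448069_at the day 7 rise was 0.88 in WT and 0.86 in KO, both called, but its sham and day 7 means were all under 4, close to the floor. On the other tested probe set, 1439925_at, the WT means were 3.86 in sham and 9.35, 9.10 and 7.28 on days 1, 3 and 7. The KO means were 4.57, 8.96, 8.97 and 7.30.

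For Emp1, 1416529_at read 6.51, 7.05, 7.69 and 7.13 in sham WT and 7.49, 6.45, 7.89 and 7.46 in sham KO. In injured WT cords it read 11.28, 11.51, 10.98, 11.72 and 11.20 on day 1, 11.17, 11.79, 11.38 and 10.83 on day 3, and 10.79, 9.90, 10.22 and 10.90 on day 7. Day 7 overlapped day 3 but not day 1. In injured KO cords it read 11.54, 11.05, 10.49 and 11.20 on day 1, 11.47, 10.91, 12.04, 11.79 and 11.13 on day 3, and 10.54, 10.30, 10.37 and 10.30 on day 7. Emp1 rose 18.9-fold, 18.3-fold and 10.3-fold in WT and 13.4-fold, 17.7-fold and 8.30-fold in KO. The second Emp1 probe set, 1459171_at, stayed at the floor on all arrays and was not tested.

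**Figure D2:**
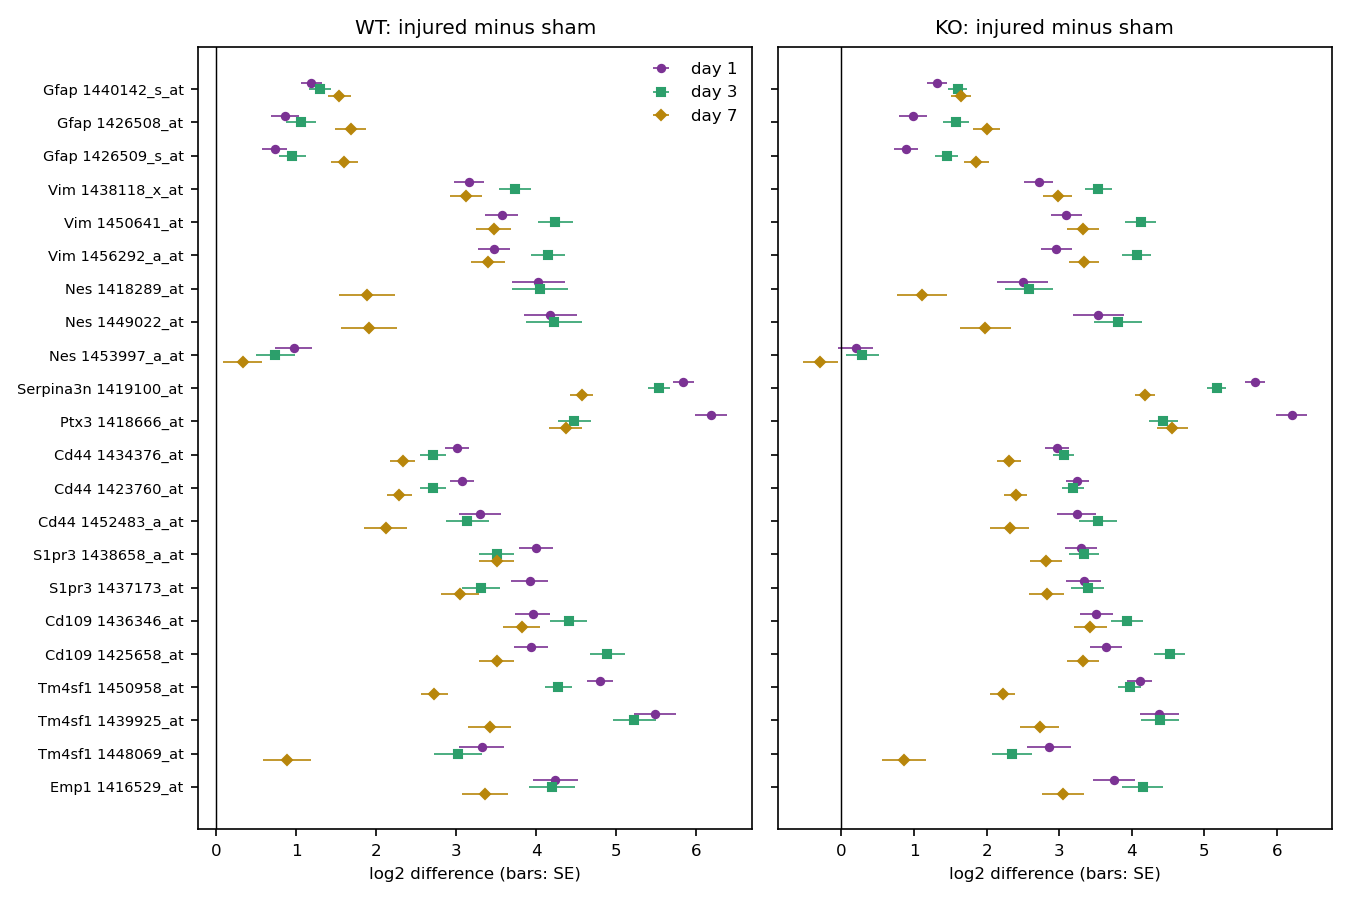
Log2 difference from sham (horizontal axis) of each of the 22 tested probe sets, named with its gene on the vertical axis, in WT (left) and KO (right). Symbols mark day 1, day 3 and day 7, and bars are limma's standard errors. All differences are positive except that of Nes 1453997_a_at on day 7 in KO (-0.29).

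The members separated over the 7 days. Ptx3 fell first: it dropped by 1.71 from day 1 to day 3 in WT (limma adjusted p = 2.02e-07) and by 1.77 in KO (adjusted p = 3.89e-08), and then differed by -0.11 (95% interval -0.54 to 0.32) and 0.13 (-0.28 to 0.53) between days 3 and 7. Vim went the other way over the same step, rising by 0.59 in WT (adjusted p = 0.0188) and by 0.82 in KO (adjusted p = 0.000694), and then fell by 0.61 and 0.56 (adjusted p = 0.0267 and 0.0224). Both of its other probe sets were called in these directions in both genotypes. From day 1 to day 3, 1 member of 10 rose and 2 fell in each genotype, beside 14.7% and 16.1% of all tested genes in WT and 22.8% and 30.1% in KO. The other member that fell was Tm4sf1 in WT (-0.52, adjusted p = 0.0182), where the days overlapped and the other 2 Tm4sf1 probe sets were not called. In KO it was Serpina3n (-0.53, adjusted p = 0.00149). These counts use the probe set that stands for each gene. The other Gfap probe sets, 1426508_at and 1426509_s_at, had KO means of 10.58 and 10.50 on day 1 and of 11.17 and 11.06 on day 3. Averaging the Gfap probe sets gave a called KO rise of 0.48 over this step (limma adjusted p = 0.00931).

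From day 3 to day 7 no member rose, 5 fell in WT and 6 fell in KO, on the probe set that stands for each gene. Beside this, 10.2% of tested genes were called higher and 11.4% lower in WT, and 18.3% and 15.7% in KO. Of the other Gfap probe sets, 1426508_at (WT means of 11.08 on day 3 and 11.71 on day 7) and 1426509_s_at (10.98 and 11.63) were called higher in WT. Averaging the Gfap probe sets gave a called WT rise of 0.50 (limma adjusted p = 0.0236). In KO 0 member probe sets were called higher. Nes fell by 2.18 in WT (limma adjusted p = 4.59e-05) and by 1.48 in KO (adjusted p = 0.00146). Tm4sf1 fell by 1.55 (adjusted p = 2.51e-07) and 1.75 (adjusted p = 6.63e-09), and Serpina3n by 0.97 (adjusted p = 1.06e-05) and 0.99 (adjusted p = 2.62e-06). The fall of Emp1 was 0.84 in WT (adjusted p = 0.0415) and 1.09 in KO (adjusted p = 0.00423). Cd44 fell by 0.75 in KO (adjusted p = 0.00059), and its WT difference of -0.37 was not called (adjusted p = 0.1). On 1423760_at and 1452483_a_at the WT means of Cd44 were 11.41 and 6.03 on day 3 and 10.99 and 5.01 on day 7. Averaging the Cd44 probe sets gave a called WT fall of 0.61 (limma adjusted p = 0.0115). Whether KO and WT differed in these steps was tested, and 0 of 10 members were called by limma for either step.

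From day 1 to day 7, 1 member rose and 6 fell in WT, beside 20.1% and 21.2% of all genes, and 0 rose and 5 fell in KO, beside 20.2% and 22.6%. Gfap was the member that rose, by 0.35 in WT (limma adjusted p = 0.0364), and its KO difference was 0.34 (adjusted p = 0.0564). On 1426508_at and 1426509_s_at Gfap rose over these days by 0.83 and 0.87 in WT and by 1.00 and 0.97 in KO, all called. Tm4sf1, Nes, Ptx3, Serpina3n and Cd44 fell in both genotypes. Their log2 differences were -2.07, -2.15, -1.82, -1.27 and -0.68 in WT and -1.88, -1.40, -1.65, -1.52 and -0.66 in KO. Emp1 fell by 0.88 in WT (adjusted p = 0.0124) and differed by -0.69 in KO (adjusted p = 0.0618). Vim, Cd109 and S1pr3 were not called, with 95% intervals of -0.40 to 0.36, -0.59 to 0.31 and -0.93 to -0.07 in WT. For Cd109 the second probe set, 1425658_at, was called between days: it rose by 0.96 in WT and 0.87 in KO from day 1 to day 3 and fell by 1.39 and 1.20 from day 3 to day 7. The second S1pr3 probe set, 1437173_at, fell by 0.87 from day 1 to day 7 in WT.

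Single arrays bore on some of these steps. Without day 3 WT replicate 2, 5 members were called between days 1 and 3 in WT in place of 3, with Gfap at 0.30 (limma adjusted p = 0.0416) and Serpina3n at -0.46 (adjusted p = 0.00671) added. Without that array 3 members were called between days 3 and 7 in place of 5, with Vim (-0.61, adjusted p = 0.0595) and Emp1 (-0.67, adjusted p = 0.166) no longer called. The same 2 genes were no longer called without day 7 WT replicate 2 or without day 7 WT replicate 3, which left 3. Without day 1 KO replicate 1, 5 members were called between days 1 and 3 in KO in place of 3, with Gfap (0.35) and Cd109 (0.60) added, and Gfap was then also called from day 1 to day 7 (0.41).

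The calls nearest the threshold changed with several arrays. The Gfap rise from day 1 to day 7 in WT was not called without day 1 WT replicate 2, 3 or 5 or day 7 WT replicate 1, 2 or 3 (0.29 to 0.36). The Emp1 fall from day 3 to day 7 in WT was also lost without day 3 WT replicate 1 (-0.88) or 3 (-0.81), and the one from day 1 to day 7 without day 7 WT replicate 2 (-0.70). The Vim fall from day 3 to day 7 was also lost without day 7 WT replicate 1 in WT (-0.58) and without day 3 KO replicate 3 in KO (-0.53). The Tm4sf1 fall from day 1 to day 3 in WT was lost without day 1 WT replicate 4 (-0.40), day 3 WT replicate 1 (-0.48) or day 3 WT replicate 4 (-0.46). Calls were gained for Cd109 from day 3 to day 7 without day 3 WT replicate 4 (-0.72) and without day 3 KO replicate 5 (-0.62). They were gained for S1pr3 over that step without day 3 KO replicate 5 (-0.65), and for Emp1 from day 1 to day 7 without day 1 KO replicate 3 (-0.89). With both doubted day 1 WT arrays left out, Tm4sf1 from day 1 to day 3 (-0.48, limma adjusted p = 0.0718), Emp1 from day 3 to day 7 (-0.84, adjusted p = 0.0516) and Gfap from day 1 to day 7 (0.39, adjusted p = 0.0502) in WT were no longer called. The day-to-day values of Ptx3, Nes and Serpina3n that were called in all arrays kept their call without any 1 array. With the doubted arrays grouped by their other label fields instead of their titles, 0 members in WT were called for any of the 3 steps, and 0, 1 and 1 in KO.

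**Figure D3:**
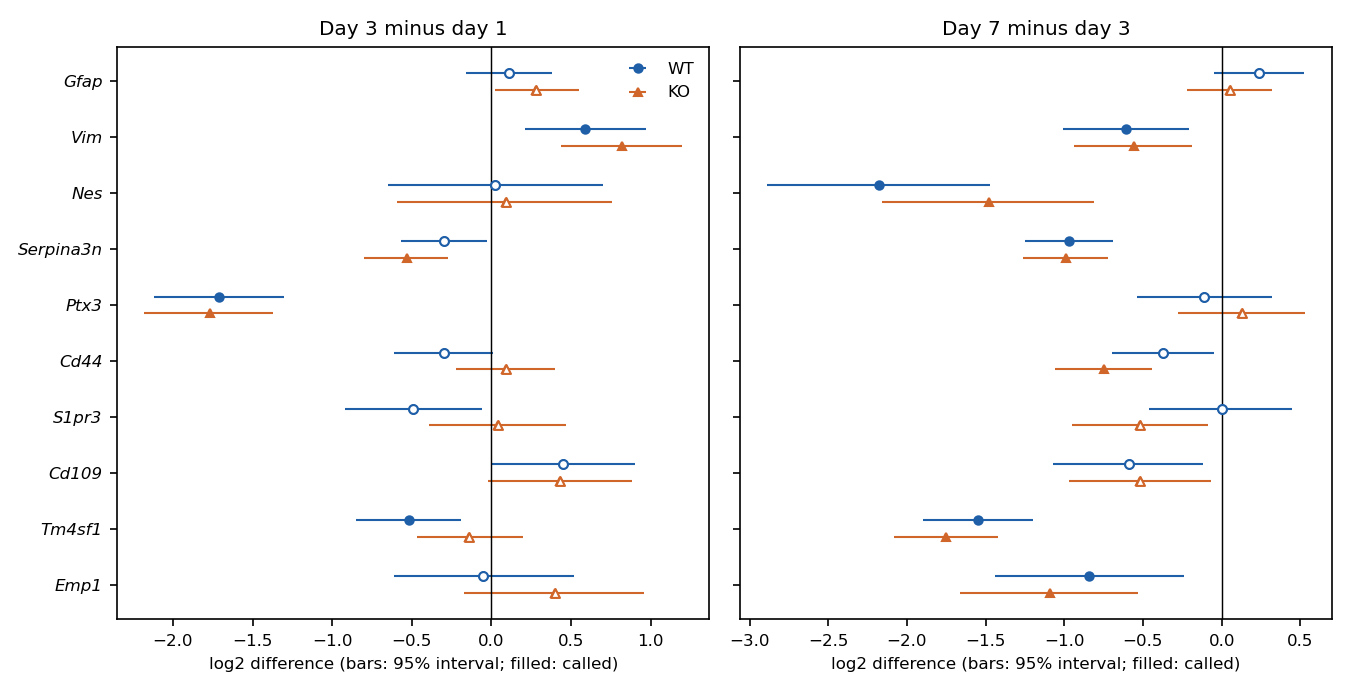
Log2 difference (horizontal axis) of each gene from day 1 to day 3 (left) and from day 3 to day 7 (right), in WT (circles) and KO (triangles), with bars for the 95% interval and filled symbols for called differences. Ptx3 lies far to the left only in the first step (-1.71 and -1.77), and Nes, Tm4sf1 and Serpina3n lie to the left in the second, from -2.18 to -0.97.

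The order of the group means followed from these steps. Gfap had its highest mean on day 7 in both genotypes. Day 7 minus day 3 on 1440142_s_at was 0.24 in WT and 0.05 in KO (limma adjusted p = 0.242 and 0.794), and neither was called. Its other tested probe sets were called higher over this step in WT but not in KO. Vim, Nes and Cd109 were highest on day 3 in both, although days 1 and 3 did not differ beyond their spread for Nes (differences of 0.02 and 0.09) or for Cd109 on 1436346_at (0.45 and 0.43, limma adjusted p = 0.13 and 0.107). Serpina3n, Ptx3 and Tm4sf1 were highest on day 1 in both, although day 3 minus day 1 was not called for Serpina3n in WT (-0.30, limma adjusted p = 0.0852) or for Tm4sf1 in KO (-0.14, adjusted p = 0.522). Cd44, S1pr3 and Emp1 were highest on day 1 in WT and on day 3 in KO, where the 2 days were not called different in either genotype.

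None of the 10 genes was called different between KO and WT cords. In sham, 0 of 10 were called by limma, beside 0.0667% of all genes, and 2 of 10 had an unadjusted p under 0.05. On day 1, 0 were called and 1 had such a p, beside 0.717% of all genes called. On days 3 and 7, 0 were called and 0 had such a p, beside 0.0333% of all genes at each. For the mean of the 4 conditions 0 were called and 0 had such a p, beside 0.133% of genes. The difference in injury response was called for 0 of 10 members on day 1, day 3 and day 7, with 3, 1 and 2 unadjusted p-values under 0.05, beside 0.108%, 0% and 0.00833% of genes. The difference in the step from day 1 to day 3 and in the step from day 3 to day 7 was called for 0 members, with 0 such p-values, beside 0.633% and 0.00833% of genes. These shares are of adjusted calls. Of 11998 tested genes, 485 had an unadjusted limma p under 0.05 in sham, 1126 on day 1, 1359 on day 3 and 553 on day 7. The number was 843 for the mean of the 4 conditions and 745, 814 and 382 for the injury responses. For the steps it was 1693 and 947. The members' unadjusted counts are to be read beside these numbers.

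The intervals bound how large a genotype difference of these genes could be on the probe set that stands for each. The 95% intervals of the mean KO minus WT difference over the 4 conditions lay between -0.37 and 0.43 for all 10 genes. Within single conditions they reached further. The lowest and highest bounds were -0.63 and 1.74 for sham, -1.17 and 0.30 for day 1, -1.11 and 0.74 for day 3, and -0.89 and 0.97 for day 7. For Gfap the KO minus WT difference was -0.25 (95% interval -0.54 to 0.03) in sham, -0.12 (-0.39 to 0.14) on day 1, 0.05 (-0.22 to 0.31) on day 3 and -0.14 (-0.42 to 0.14) on day 7.

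**Figure D4:**
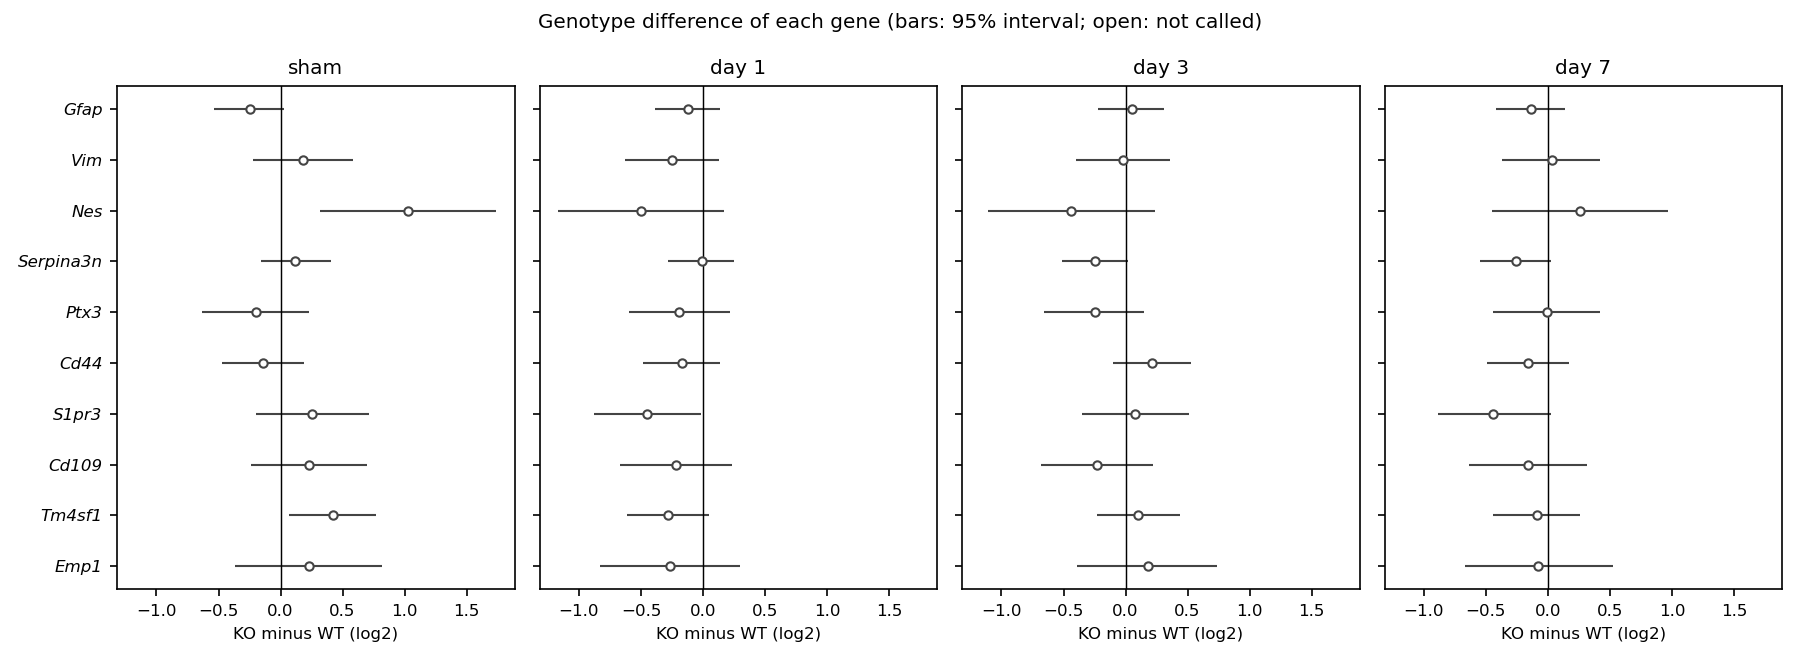
KO minus WT log2 difference of each gene in sham and on days 1, 3 and 7 (4 panels, shared horizontal axis), with bars for the 95% interval; open symbols mark differences that were not called. All 10 points of day 1 lie at or left of 0 (-0.50 to -0.01), and the widest departure is Nes in sham (1.03).

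Nes in sham had the largest KO minus WT value, 1.03 ± 0.35 (SE, 95% interval 0.32 to 1.74), with limma's adjusted p at 0.804. Of the 4 sham KO arrays 3 read above all sham WT arrays, and sham KO replicate 1 lay among them. The difference was 1.36 without sham KO replicate 1 (adjusted p = 0.282) and 0.93 without sham KO replicate 2 (adjusted p = 0.907). The latter is the library that read 9.46 on Ntrk2 probe set 1420838_at. The second Nes probe set, 1449022_at, gave 0.17 near the floor. Skeletal muscle transcripts varied across the same arrays: the mean of 6 muscle genes read 8.13, 10.27, 9.94 and 11.03 in sham KO replicates 1 to 4, beside Nes at 4.14, 5.46, 5.48 and 5.53. In sham WT the muscle mean read 3.45, 9.40, 2.95 and 9.02, beside Nes at 3.98, 3.61, 4.26 and 4.65. The mean of the Schwann cell genes Pmp2 and Egr2 also differed: it ran from 2.73 to 3.72 in sham WT, with both genes under 4 on every array, and read 5.79, 3.15, 6.83 and 7.06 in sham KO replicates 1 to 4. Egr2 was called higher in sham KO (at least 2.19, limma adjusted p = 0.00507) and Pmp2 was not. The part of muscle or Schwann cell RNA in the Nes difference was not tested. The Nes injury response of KO minus that of WT was -1.53 on day 1 (95% interval -2.51 to -0.55, adjusted p = 0.479) and -1.47 on day 3 (adjusted p = 0.705), and neither was called. Both share the sham arrays with the sham difference. Tm4sf1 in sham differed by 0.42 (95% interval 0.07 to 0.77, adjusted p = 0.994), and its injury response on day 1 differed by -0.70 (adjusted p = 0.54).

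On day 1 the KO minus WT values of all 10 genes were negative, with a median of -0.23 beside 0.02 over all genes, and the groups overlapped for every gene. The largest single values were -0.50 for Nes (95% interval -1.17 to 0.17) and -0.45 for S1pr3 (-0.88 to -0.02, limma adjusted p = 0.53), and none was called. In the same arrays 7 of 7 cell division genes fell in KO relative to WT, with a median of -2.41, beside 0.558% of all genes called lower. Their list mean ran from 6.45 to 7.27 in WT and from 3.58 to 4.37 in KO. Bub1 of this list was under 4 on every day 1 KO array, so its fall is a lower bound. The part of this cell division difference in the members' values was not tested. On day 7 the KO minus WT values ran from -0.44, for S1pr3, to 0.26, and none was called. The KO arrays lay below the WT arrays without overlap for S1pr3 (9.28 to 9.79 against 9.87 to 10.09) and Cd44 (10.96 to 11.08 against 11.09 to 11.33). For the other 8 genes the arrays overlapped. The share of all tested genes that separate in this way was not counted. The median member value was 0.21 in sham, 0.01 on day 3 and -0.11 on day 7.

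Other genes of the reactive astrocyte panels rose as well. These panels are the sets of transcripts commonly grouped as shared between injuries, as raised after ischaemia and as raised after lipopolysaccharide (LPS), here without the 10 members. Of 28 listed genes 25 were tested. In WT 24 rose and 1 fell on day 1, 23 rose and 1 fell on day 3, and 20 rose and 1 fell on day 7, and in KO the counts were 22 and 0, 21 and 1, and 21 and 0. All of this is to be read beside the share of genes called higher given above and the share called lower, which was 31.8%, 37% and 32.6% in WT and 26.4%, 38.4% and 30.1% in KO. The genes of the shared panel were called higher in 8 of 8 cases at each day in WT, with medians of 3.70, 3.61 and 2.73, and in 8, 8 and 7 of 8 in KO, with medians of 4.56, 3.12 and 2.29. Steap4 and Timp1 of this panel were under 4 on every sham array. Timp1, an inhibitor of matrix metalloproteases, rose by 8.07 ± 0.24 (SE), 7.89 ± 0.25 and 5.74 ± 0.25 in WT on days 1, 3 and 7 from that sham signal, so these are lower bounds. Osmr, the oncostatin M receptor of the interleukin-6 family, rose by 4.90, 4.59 and 4.12.

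The ischaemia panel was highest early. It had medians of 4.22, 3.30 and 1.39 in WT, with 8, 7 and 5 of 8 genes called higher, and 4.53, 3.15 and 1.50 in KO, with 8, 6 and 6. Tgm1, a transglutaminase, rose by 6.53, 5.58 and 3.48 in WT, and Ptgs2, the inducible cyclooxygenase, by 5.57, 4.48 and 1.81. Of the 8 genes 5 (Clcf1, Tgm1, Sphk1, Slc10a6 and B3gnt5) were under 4 on every sham array, so their values and the panel medians are lower bounds. From day 1 to day 7 this panel fell in 8 of 8 genes in WT and in 7 of 8 in KO, with Sphk1 and Slc10a6 under 4 on every day 7 array. The LPS panel had 9 tested genes and medians of 2.59, 2.09 and 2.23 in WT and 2.04, 1.89 and 2.57 in KO. Gbp2, an interferon-induced GTPase, rose by 3.98 on day 1 in WT and by 5.15 in KO, and Amigo2, a cell adhesion gene, fell by 0.57 on day 1 in WT, a lower bound because it was under 4 on every injured WT array. No panel gene was called between genotypes in any condition by limma.

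**Figure D5:**
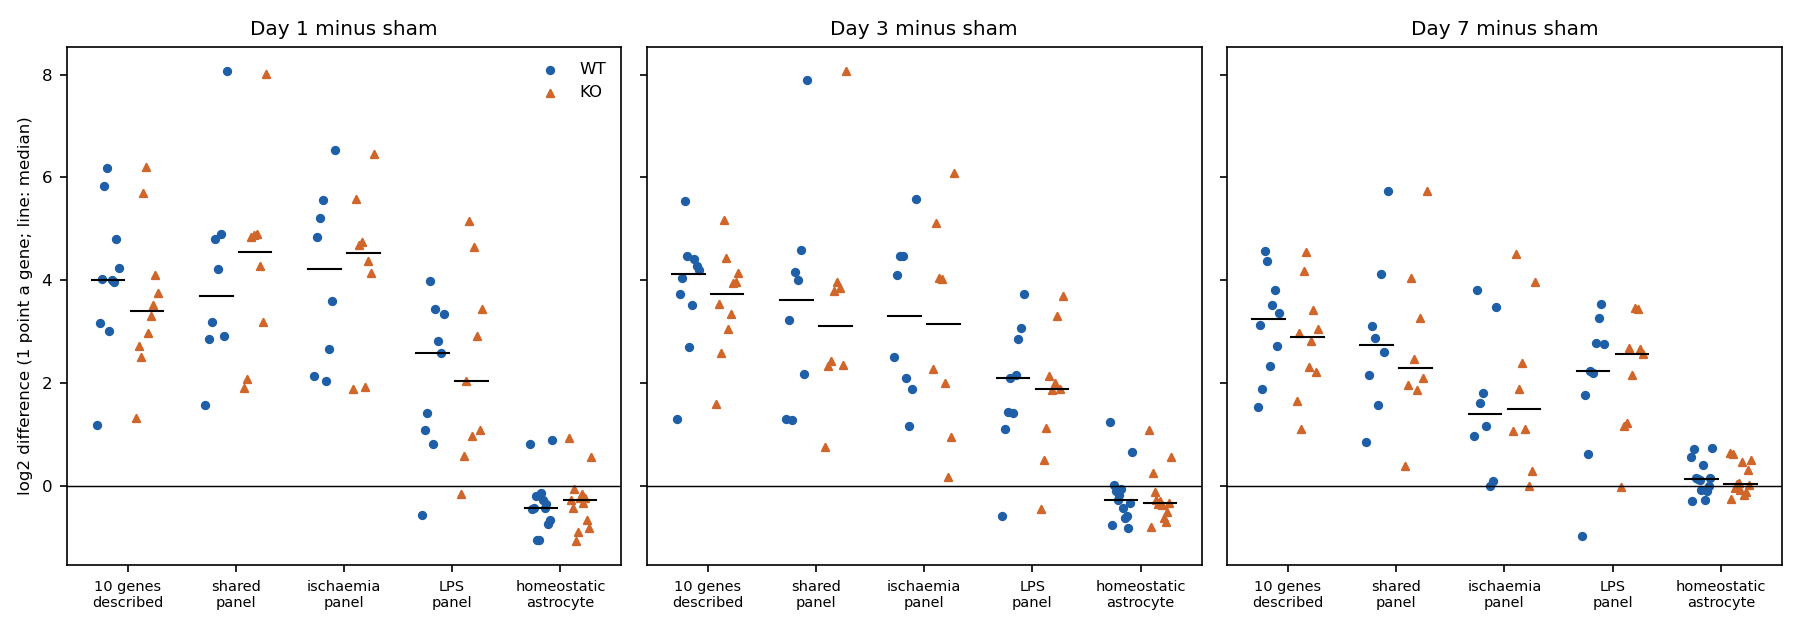
Log2 difference from sham (vertical axis) of each gene (1 point a gene) in 5 gene lists (horizontal axis) on days 1, 3 and 7, in WT (circles) and KO (triangles), with lines for medians. The 10 members lie between 1.11 and 6.20, and the homeostatic astrocyte genes lie around 0 with medians between -0.42 and 0.14.

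Genes of resting astrocytes had medians between -0.42 and 0.14, against -0.05 or -0.06 for all genes. Of 13 homeostatic astrocyte genes 2 rose and 8 fell on day 1 in WT, 2 rose and 5 fell on day 3, and 4 rose and 1 fell on day 7, with medians of -0.42, -0.28 and 0.14. In KO the counts were 2 and 6, 2 and 6, and 4 and 0, with medians of -0.27, -0.34 and 0.04. Of all tested genes 26.6%, 29% and 25.4% were called higher and 31.8%, 37% and 32.6% lower in WT on these days. In KO the shares were 23.1%, 30.7% and 22.9% higher and 26.4%, 38.4% and 30.1% lower. The counts lower on day 1, 8 of 13 in WT and 6 of 13 in KO, lay above these shares. Those on day 7, 1 and 0, lay below them. Whether the list as a whole differs from all genes was not tested. Gja1 and Gjb6, which encode the gap junction proteins connexin 43 and connexin 30, fell by 1.05 and 1.06 on day 1 in WT and differed by 0.14 and 0.12 on day 7. Aldh1l1, a folate enzyme, and Sox9, a transcription factor, both used to mark astrocytes, rose by 0.82 and 0.89 on day 1. The list mean ran from 11.99 to 12.05 in sham WT, 11.62 to 11.79 on day 1, 11.32 to 12.06 on day 3 and 12.13 to 12.26 on day 7. No astrocyte marker was under a log2 value of 4 on all arrays of any group.

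Markers of several other cell types moved with the injury too. Their counts are to be read beside the shares of all tested genes called higher and lower on each day, given in the paragraph above. Of 8 macrophage and microglia genes 7, 8 and 8 rose in WT on days 1, 3 and 7, with medians of 2.00, 3.09 and 3.57, and their list mean ran from 6.45 to 6.68 in sham WT and from 10.20 to 10.76 on day 7. Among them only Ccr2 was under 4 on every sham WT array. In KO 6, 8 and 7 of the 8 rose, with medians of 2.10, 4.15 and 3.81. Of 6 endothelial genes 6, 6 and 1 rose in WT, with medians of 1.02, 2.01 and 0.47 and list means of 5.57 to 5.80 in sham, 6.88 to 7.29 on day 1, 7.36 to 8.45 on day 3 and 5.31 to 7.20 on day 7. In KO 2, 5 and 1 of these 6 rose, with medians of 0.38, 1.20 and -0.47. Pecam1 of this list was under 4 on every sham and day 7 array of both genotypes, so the floor limits its differences. Of 8 pericyte and fibroblast genes 4, 6 and 6 rose in WT, with medians of 0.54, 1.09 and 1.73. In KO 1, 5 and 4 of the 8 rose and 1 fell on day 7, with medians of 0.22, 1.51 and 1.30. Of 4 tested neutrophil genes only 1 rose on each day in each genotype. Their medians were 0.49, 0.07 and 0.30 in WT and 1.07, 1.31 and 0.51 in KO. Of 4 tested ependymal genes 3, 2 and 0 fell in each genotype, with medians of -1.54, -0.66 and -0.07 in WT and -1.29, -0.49 and 0.14 in KO. Ccdc153 of this list was under 4 on every day 1 and day 3 array of both genotypes, so the floor limits its differences there. Of 5 neuronal genes 4, 5 and 5 fell in WT and 1, 5 and 4 in KO, with medians of -0.41, -0.78 and -0.70 in WT and -0.33, -0.94 and -0.63 in KO. Of the Schwann cell genes Pmp2 and Egr2, both under 4 on every sham WT array, 2, 1 and 2 rose in WT, with medians of 4.2, 2.88 and 3.99 that are lower bounds, and 1 of the 2 rose on each day in KO, with medians of 0.82, 0.78 and 1.38. Vim, Cd44, Tm4sf1 and Emp1 are made by several of these types, and the part of each in the members' rise was not tested. The mean of 6 skeletal muscle genes varied widely. It ran from 2.95 to 9.40 in sham WT, 3.02 to 8.82 on day 1, 7.20 to 10.23 on day 3 and 3.90 to 10.35 on day 7. In KO it ran from 8.13 to 11.03, 3.35 to 7.02, 4.55 to 13.99 and 3.71 to 5.18. Ckm and Tnnt3 of this list were under 4 on every day 7 KO array. The part of muscle RNA in the members' values was not tested. RNA quality, read as the 3′ minus 5′ signal of beta-actin, averaged 1.96 in sham WT and 1.72, 1.49 and 1.85 on days 1, 3 and 7, and 2.08, 1.77, 1.50 and 1.94 in KO. For Gapdh the same reading averaged 0.07 in sham WT and 0.29, 0.21 and 0.42 on days 1, 3 and 7, and 0.10, 0.27, 0.28 and 0.44 in KO. The part of RNA quality in the members' values was not tested.

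Among themselves the members were compared by the root mean square difference of their 8 group means, each gene's own mean subtracted. The nearest pair was Cd109 and Emp1, at 0.26 log2 units, followed by Vim and Cd109 at 0.30, and the farthest was Gfap and Ptx3 at 1.77. The same measure over all other tested genes named the 3 nearest to each member. For Gfap, whose group means span 1.79, these were Lamp2 (0.10), a lysosome membrane gene, Shisa5 (0.11) and Rap1b (0.13). For Vim, which spans 3.74, they were Anxa3 (0.12), Clic1 (0.12) and Baz1a (0.15). Nes was nearest to Igfbp3 (0.25), which encodes a binding protein of insulin-like growth factors, then Stx11 (0.38) and Fxyd3 (0.44). Serpina3n was nearest to AA467197 (0.35), to Saa3 (0.37), an acute phase gene, and to Cd14 (0.39), a co-receptor for bacterial lipopolysaccharide. Ptx3 was nearest to the chemokine gene Ccl12 (0.46), to Cd14 (0.47) and to the chemokine gene Ccl3 (0.56).

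Among the surface members, Cd44 was nearest to Tnfrsf1a (0.09), a receptor for tumour necrosis factor, and then to Tspan4 (0.17) and Sdc1 (0.20). S1pr3 was nearest to Mapkapk3 (0.23), Dab2 (0.28) and Tagln2 (0.29), and Cd109 to Lrrfip1 (0.23), Icam1 (0.23) and Fxyd5 (0.27). Tm4sf1 was nearest to Bcl3 (0.23), a nuclear partner of NF-kB, Tgfbi (0.26) and Hspb1 (0.27), a small heat shock gene of the shared reactive panel. Emp1 was nearest to Dab2 (0.14), Procr (0.20) and C5ar1 (0.23). These are distances between 8 group means that share their arrays, given as a description.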

How the data were processed

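Expression was measured on 34 single-channel Affymetrix arrays of mouse thoracic spinal cord, from 1 µg of Trizol-extracted total RNA per the labels. The deposited values are log2 signals computed with GCRMA, per the submitters' processing notes, with no version stated, and they were used as given. They ran from 2.17 to 15.904, array medians ran from 4.139 to 4.39, and 33.7% of values lay within 0.1 of the lowest, so that differences from a group near that floor are lower bounds. The genome build behind the probe annotation was not given in the sources used here. No 2 arrays were identical (0 pairs), and the number of arrays limits the precision. The labels call the arrays biological replicates without saying whether each is 1 animal, so p-values measure the spread between arrays.

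Arrays were grouped by title. Of 45101 probe sets, 64 array controls were left out and a probe set was tested if 4 or more arrays read 4 or higher. limma 3.58.1 under R 4.3.3 fitted the 8 group means across all 34 arrays (lmFit and eBayes, 26 residual and 2.62 prior degrees of freedom). The Benjamini-Hochberg adjustment ran over all tested probe sets, with a threshold of 0.05, and intervals are at 95%. Errors are limma's SE or the SD over arrays. The probe set with the highest mean stood for a gene. The fit was tested on simulated data.

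The members, gene lists and comparisons were chosen with earlier results of these data known, so counts over them are descriptions. All 10 members were named, with, of each other list, only genes with the largest changes, and the 3 nearest genes of each member. Alternatives were quantile scaling, another filter or none, averaging the probe sets of a gene, array weights, a trended prior, only the arrays compared, a replicate block, each array left out and both readings of the doubted labels. Leaving out sham KO replicate 2 and day 7 WT replicate 4 together was added after the data were seen. The labels share replicate numbers across groups, but over 113 same-numbered pairs the deviations correlated at -0.45 to 0.43, with a median of 0.01, so the numbers were not taken as pairs.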

Additional observations from a re-analysis of the deposited data

Results flagged for a closer look

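In 80 groups (10 genes by 8 groups), 4 held 1 array whose gap to the nearest other array took most of the group's range. Independent groups would give about that many at this 95% limit, but these groups share arrays, so the number due is not known here. Gfap in day 3 WT replicate 2 read 12.73, while the other 3 arrays read 13.48 to 13.52. S1pr3 in the same array read 9.10, while the others read 10.27 to 10.30, and this array also had the lowest weight, 0.09, when array weights were fitted over all probe sets. Its correlation with the mean of the other arrays of its group was 0.40, beside 0.61 to 0.75 for those arrays. Nes in sham KO replicate 1 read 4.14, while the others read 5.46 to 5.53. Vim in day 3 KO replicate 3 read 15.40, while the other 4 arrays read 15.21 to 15.24.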

How the results depend on the processing

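Over the alternatives, 1158 of 1160 member differences from sham kept their direction and call. The other 2 were Nes at day 7 in KO, without sham KO replicate 1 and with the doubted arrays grouped by source and time. All 2620 member values between genotypes remained uncalled, and 137 of them changed sign. Of 1180 values between days, 58 lost and 39 gained a call, and no called value changed sign. With the doubted arrays grouped by their source and time fields, which places day 1 arrays among sham and day 7, members called in WT were 0 from day 1 to day 3, 0 from day 3 to day 7 and 0 from day 1 to day 7, and in KO they were 0, 1 and 1. Array weights gave 5 from day 1 to day 3 in WT and 8 from day 1 to day 7 in KO. Fitting only the arrays compared also gave 8 for the latter. Averaging the probe sets of a gene gave 8 from day 3 to day 7 in WT and 5 from day 1 to day 3 in KO, and no filter gave 3 from day 3 to day 7 in WT. The cause was not tested. Leaving out each array in turn gave 2 to 5, 3 to 6 and 5 to 7 members called in WT for days 1 to 3, 3 to 7 and 1 to 7, and 3 to 5, 5 to 8 and 5 to 6 in KO. With the replicate number as a block, 10 members were called in each injured group, 0 between genotypes, and in KO 7 from day 3 to day 7; it ended the Gfap call from day 1 to day 7 in WT (0.34, limma adjusted p = 0.0503) and added S1pr3 from day 1 to day 7 in WT (-0.58) and from day 3 to day 7 in KO (-0.60). Signal near the floor limits Nes, Ptx3 and Cd109 in sham, and signal near the top of the scale limits Vim after injury. Quantile scaling moved the median of all genes by at most 0.04.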
